A study of Mus musculus with 20 samples.

Results

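The matrix metalloproteinases (MMP), the ADAMTS proteases, the ADAMTS-like proteins and the tissue inhibitors of metalloproteinases (TIMP) were followed in epididymal white adipose tissue (eWAT) and liver of IR 4A and WT mice. Members were taken by gene symbol alone: Mmp, Adamts or Adamtsl followed by a digit, or Timp followed by a single digit. This gave 48 of the 20996 genes in the deposited count tables, namely 20 MMP, 19 ADAMTS, 5 ADAMTS-like and 4 TIMP genes. All 48 were counted in eWAT and 36 in liver; the other 12 (Adamts8, Adamts17, Adamts18, Adamts19, Adamts20, Mmp1a, Mmp1b, Mmp3, Mmp16, Mmp24, Mmp25 and Timp4) have values from eWAT alone.

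The study concerns the insulin receptor and its uptake from the cell surface through the checkpoint protein MAD2. Poly-A RNA was sequenced from 20 libraries, 5 each of eWAT IR 4A, eWAT WT, liver IR 4A and liver WT, all from male mice aged 2 months. The labels name the IR 4A genotype and describe the allele no further. They give each library a replicate number but no animal, so the p-values below measure the spread between these libraries, part of which may be technical.

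Matrix metalloproteinases are zinc enzymes that cut collagens, gelatin and other proteins of the extracellular matrix, and ADAMTS enzymes are secreted relatives that trim procollagens, cleave large proteoglycans or bind fibrillin microfibrils. ADAMTS-like proteins share the carboxy-terminal domains of the ADAMTS enzymes but have no protease domain. The TIMP proteins block these enzymes, and TIMP2 also takes part, with the membrane enzyme MMP14, in activating MMP2. In adipose tissue this matrix is remodelled as fat cells grow, and in liver much of it is made and turned over by stellate cells.

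The sequences just before the transcription start of 6 members are shown because 4 of these genes carry the difference between the tissues described below. The other 2 were picked as examples from the chromosome 9 group of MMP genes, of which most were hardly detected. Each is the 120 bases before the start in the RefSeq annotation of GRCm38.p6, written 5′ to 3′ on the strand of the gene. Capitals mark the GC box GGGCGG, the TATA box TATAAA and the AP-1 site TGANTCA on either strand, and matches of 1 motif may overlap each other. Timp2 is at chr11:118355412-118355531 on the minus strand, Adamts2 at chr11:50601965-50602084 on the plus strand, Adamts14 at chr10:61273420-61273539 on the minus strand and Adamts1 at chr16:85803114-85803233 on the minus strand. Mmp3 is at chr9:7445702-7445821 and Mmp13 at chr9:7272394-7272513, both on the plus strand.
Timp2: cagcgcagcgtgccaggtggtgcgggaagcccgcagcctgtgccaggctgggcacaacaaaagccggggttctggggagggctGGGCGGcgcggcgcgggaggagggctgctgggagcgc
Adamts2: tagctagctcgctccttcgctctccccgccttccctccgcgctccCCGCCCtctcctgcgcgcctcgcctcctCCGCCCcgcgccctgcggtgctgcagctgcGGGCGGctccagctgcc
Adamts14: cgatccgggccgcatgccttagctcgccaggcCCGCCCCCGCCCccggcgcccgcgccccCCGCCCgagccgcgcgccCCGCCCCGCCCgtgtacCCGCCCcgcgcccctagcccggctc
Adamts1: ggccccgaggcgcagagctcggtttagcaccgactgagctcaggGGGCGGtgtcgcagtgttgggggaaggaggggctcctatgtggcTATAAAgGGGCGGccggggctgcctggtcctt
Mmp3: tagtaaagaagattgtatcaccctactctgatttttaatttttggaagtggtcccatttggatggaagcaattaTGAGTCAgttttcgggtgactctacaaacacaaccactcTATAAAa
Mmp13: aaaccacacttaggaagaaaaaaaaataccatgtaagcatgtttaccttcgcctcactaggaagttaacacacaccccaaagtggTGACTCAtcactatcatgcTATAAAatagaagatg

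The windows divide the members by locus. RefSeq promoters were matched to 33 of the 48 members, and the 250 bases before each start were searched. Of the 8 members in the MMP gene cluster on chromosome 9 (Mmp13, Mmp12, Mmp1b, Mmp3, Mmp1a, Mmp8, Mmp27 and Mmp7), 0 had a GC box, 5 had a TATA box and 6 had an AP-1 site. These matches did not follow the levels given below. Mmp1a, Mmp1b, Mmp3 and Mmp13, all low, each had a TATA box and an AP-1 site. So did 1 window of Mmp7, which was abundant in eWAT, while its other window had 0 matches. Mmp8 and Mmp27, both low, had 0 matches. Of the other 25 members with a promoter, 20 had a GC box, 2 had a TATA box and 0 had an AP-1 site. Over all 36 member windows the GC box was found in 55.6%, the TATA box in 19.4% and the AP-1 site in 16.7%, against 32.7%, 12.4% and 6.75% of all 32851 promoter windows of the same length. A match describes letters in a window and is no evidence of binding.

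The libraries held 13651874 to 15530589 counts in eWAT IR 4A, 15702786 to 21615358 in eWAT WT, 18209000 to 24238359 in liver IR 4A and 17989420 to 21067651 in liver WT. Levels are counts per 1000000 counts of the library (CPM), on library sizes scaled by edgeR within each tissue. Log2 differences between the tissues come instead from a joint scaling of all 20 libraries. The CPM of eWAT and liver are thus not on 1 scale, and their ratio does not give the log2 difference. The 6 adipocyte markers were counted in every eWAT library, with sums of 1596 to 9302 CPM in IR 4A and 5277 to 17287 CPM in WT, and the 6 hepatocyte markers summed to 68253 to 79943 CPM in liver IR 4A and 69522 to 80117 CPM in liver WT. The eWAT libraries also held RNA of 8 epididymal marker genes, which summed to 17344 to 25569 CPM in IR 4A and 5579 to 17882 CPM in WT. Sperm markers passed 1000 CPM in eWAT IR 4A 3 and 4 and in eWAT WT 1 and 2. In liver, 6 acute-phase genes summed to 1522 to 3777 CPM in IR 4A, against 33189 CPM in WT 1, 18033 CPM in WT 3 and 2540 to 3640 CPM in the other WT libraries. Values without these libraries are given beside the members' medians, the main genes of each tissue and the test between tissues.

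**Figure D1:**
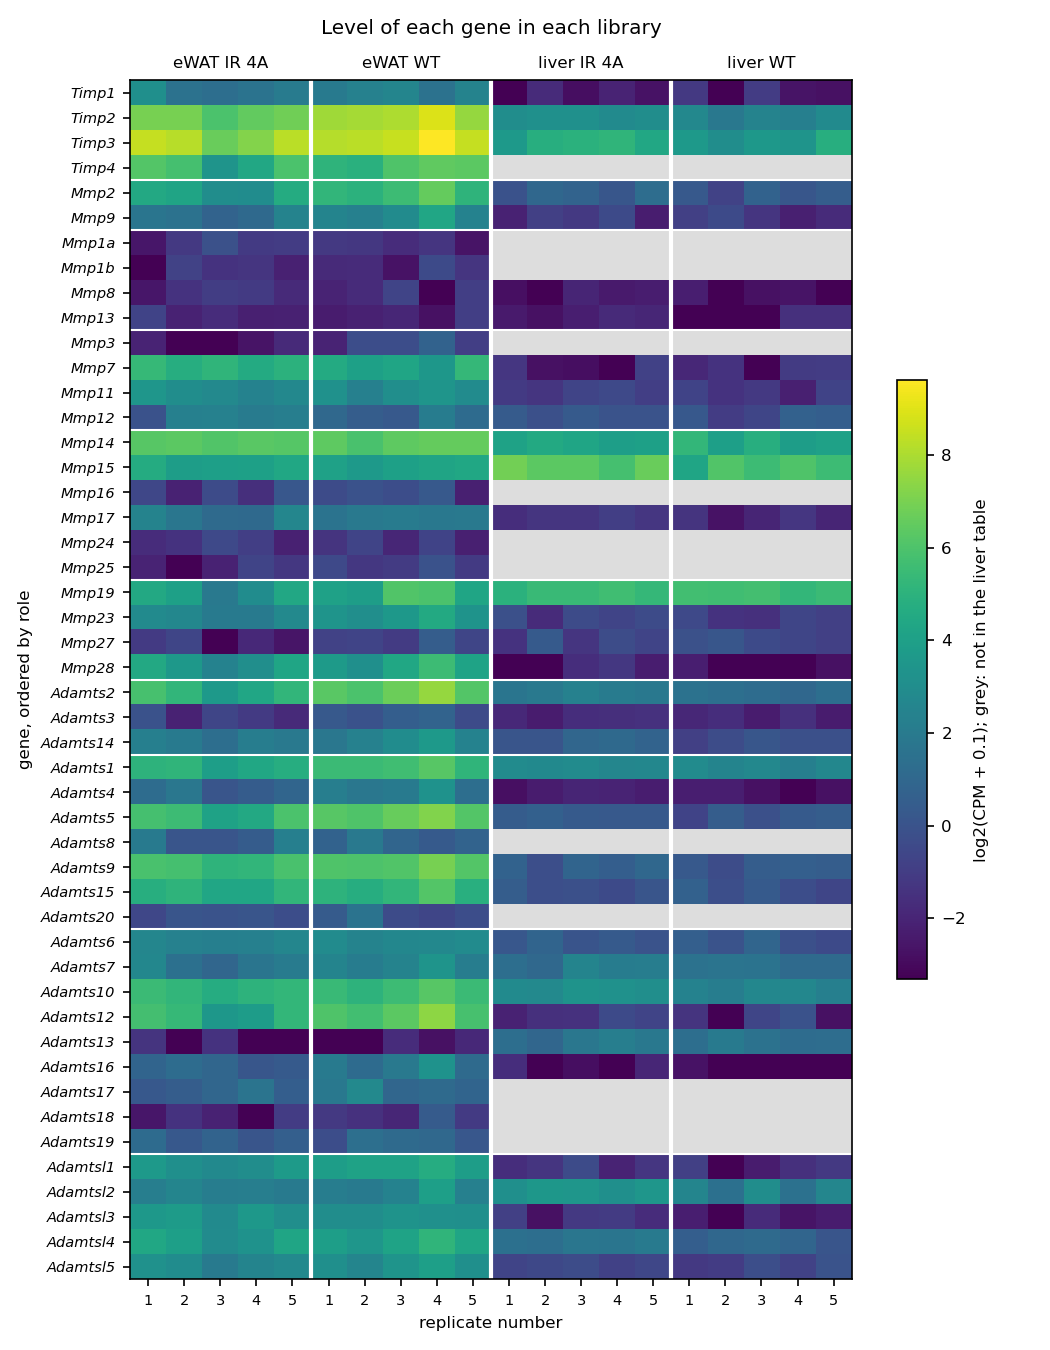
Level of each of the 48 genes (down the page, ordered by role) in each of the 20 libraries (across), as log2(CPM + 0.1); grey cells are genes outside the liver table. The Timp2 and Timp3 lines are the brightest in eWAT, Mmp15 and Mmp19 in liver, and Mmp1a, Mmp1b, Mmp3, Mmp8 and Mmp13 are dark in every library that has them.

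The 2 tissues carried different members. In WT mice 27 of the 34 members tested in all 20 libraries were higher in eWAT than in liver (43.2% of all genes were) and 5 were lower (33.9% of all genes), at an adjusted p under 0.05 by edgeR's quasi-likelihood test. These counts are partly set by the filter on low counts: 12 of the 27 passed it in eWAT alone, and 2 of the 5 in liver alone, so they had to differ in that direction. Of the 20 members that passed in both tissues, 15 were higher in eWAT and 3 were lower, with a median log2 difference of 2.07, against 0.19 for all genes tested. DESeq2 gave the same counts over the 34 members (42.9% of all genes higher, 35.1% lower), and so did limma voom (43.2% higher, 35.3% lower). Upper-quartile scaling moved the median of all genes to 0.46, so the differences are read relative to it. In these bulk samples fewer cells of a type and less RNA per cell cannot be told apart.

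Of the 5 members with the highest log2 difference, Mmp28, Adamts16, Adamts12 and Mmp7 were too low in liver to pass the filter there, so their values are a description and only Adamts5 was well counted in both tissues. Epilysin (Mmp28) averaged 21.3 ± 14.5 CPM in WT eWAT and 0.0324 ± 0.0495 CPM in WT liver (SD, n = 5 each), a log2 difference of 7.85 ± 0.85 (SE) on 2010 counts over the 5 WT eWAT libraries and 3 over the 5 WT liver libraries. Adamts16 differed by 6.82 ± 0.88, on 404 counts in WT eWAT and 1 in WT liver. The size of both differences is poorly fixed: over all alternatives it ran from 7.23 to 8.93 for Mmp28 and from 5.46 to 8.76 for Adamts16. Adamts12, an enzyme that can cut cartilage oligomeric matrix protein, differed by 6.64 ± 0.65, and matrilysin (Mmp7), an epithelial protease, by 5.18 ± 0.58. Adamts5, a major aggrecan-cutting enzyme, averaged 91.3 ± 32.8 CPM in WT eWAT and 1.02 ± 0.36 CPM in WT liver (SD, n = 5 each), a log2 difference of 5.15 ± 0.36. The adjusted p of Adamts5 by edgeR's quasi-likelihood test was 1.88e-10.

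The 5 members lower in eWAT than in liver were Adamts13, Mmp15, Mmp19, Mmp27 and Adamtsl2, of which Adamts13 and Mmp27 passed the filter in liver alone. Adamts13, the protease that trims von Willebrand factor and that stellate cells are known to make, averaged 0.0887 ± 0.101 CPM in WT eWAT and 2.74 ± 0.64 CPM in WT liver (SD, n = 5 each), a log2 difference of -6.13 ± 0.68. The membrane-anchored Mmp15 averaged 17.0 ± 3.0 CPM in WT eWAT and 49.5 ± 20.0 CPM in WT liver. Its log2 difference on the joint scaling was -2.86 ± 0.27 (edgeR adjusted p = 1.49e-08). Mmp19 differed by -1.74, Mmp27 by -1.42 and Adamtsl2 by -0.92 on the log2 scale. The calls of Mmp27 and Adamtsl2 were the weakest and were lost under upper-quartile scaling. Both were also lost without liver WT 1 and WT 3 (edgeR adjusted p = 0.0694 for Mmp27 and 0.252 for Adamtsl2). Over all alternatives the call was lost in 4 of 31 for Mmp27 and 8 of 32 for Adamtsl2. Of the members higher in eWAT, Mmp14 lost its call in 4 of 32. The 2 members that passed in neither direction were Mmp12 (-0.18) and Adamts7 (-0.12).

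Genes of different length were compared as CPM per kilobase of merged exons. On that scale the inhibitors Timp3 and Timp2 had the highest means in eWAT WT. In eWAT IR 4A the mean of Mmp7 lay between theirs. Timp3, the TIMP that binds to the matrix, averaged 29.6 in IR 4A and 51.5 in WT. Timp2 averaged 26.4 in IR 4A and 71.2 in WT. Mmp7 averaged 29.5 in IR 4A and 20.6 in WT. Mmp14, the membrane collagenase, averaged 12.7 in IR 4A and 14.1 in WT, and Mmp2 averaged 4.85 in IR 4A and 14.4 in WT. Liver was led by a pair of enzymes: Mmp15 averaged 16.0 in IR 4A and 9.17 in WT, and Mmp19 averaged 11.7 in IR 4A and 13.6 in WT. Mmp14 followed in liver with 3.06 in IR 4A and 3.75 in WT, and the inhibitor Timp3 with 3.12 in IR 4A and 1.71 in WT. Neighbours in these orders overlapped in their libraries: Mmp15 with Mmp19 and Mmp14 with Timp3 in both liver groups, Timp2 with Timp3 in both eWAT groups, Mmp7 with Timp3 in both and with Timp2 in eWAT IR 4A, and Mmp7, Mmp14 and Mmp2 with each other in eWAT WT. These ranges alone do not fix the order within each of these sets. Library by library, Timp2 was above Timp3 in every eWAT WT library. The other sets were not compared that way.

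The collagenases were near the floor. Mmp1a, Mmp1b, Mmp8 and Mmp13 stayed at or under 0.828 CPM in every library, and Mmp1a and Mmp1b are close mouse copies between which reads may be split. Of the chromosome 9 cluster, Mmp7 alone was abundant, at 24.0 to 40.2 CPM in eWAT IR 4A and 11.4 to 39.6 CPM in eWAT WT, and it was at most 0.474 CPM in a liver library. Its 5 IR 4A and 5 WT values overlapped (log2 fold change 0.52 ± 0.31, edgeR adjusted p = 0.436). The summed epididymal markers were above every WT library in 4 of the 5 IR 4A libraries, and their part in the Mmp7 values was not tested. Stromelysin 1 (Mmp3) had 6 counts over the 5 eWAT IR 4A libraries and 66 over the 5 eWAT WT libraries, and did not pass the filter on low counts. The authors' deposited table gives Mmp3 in eWAT a log2 fold change of -3.18 with an unadjusted p of 0.00124 and no adjusted p.

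In eWAT, IR 4A was compared with WT over 38 members that passed the filter on low counts. 0 of them passed an adjusted p of 0.05 by edgeR's quasi-likelihood test, in a comparison where 2 of 16476 genes did (0.0121%, both lower). At an unadjusted p under 0.05, 14 members were lower in IR 4A (9.24% of all genes were) and 0 were higher (6.63% of all genes). Of the 38, 32 had a negative log2 fold change (59.9% of all genes did) and 6 a positive one (40.1%), with a median of -0.62 against -0.08 for all genes. Other tools called more at an adjusted p under 0.05. DESeq2 called 12 members lower (4.14% of all genes) and 0 higher (3.18%), and limma voom called 1 lower, Timp2 (0.364%), and 0 higher (0.109%). In 1 edgeR fit of all 20 libraries 5 members were lower (1.49% of all genes) and 0 higher (0.517%). The authors' deposited table called 4 lower, Adamts2, Mmp2, Mmp23 and Timp2 (1.9% of its genes), and 0 higher (1.01%).

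The inhibitor Timp2 showed the smallest p of the members. It was at 123, 124, 61.2, 90.9 and 114 CPM in the 5 eWAT IR 4A libraries, against 218, 233, 265, 484 and 187 CPM in the 5 eWAT WT libraries. Every IR 4A library was below every WT library, and WT 4 stood above all others. The log2 fold change was -1.43 ± 0.29 (SE), with an edgeR adjusted p of 0.164.

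The gelatinase Mmp2, which TIMP2 helps to activate, had the same ordering. It was at 22.3, 18.8, 8.14, 7.80 and 24.8 CPM in IR 4A, against 36.0, 31.8, 46.3, 94.5 and 34.0 CPM in WT, with no overlap and a log2 fold change of -1.57 ± 0.43 (edgeR adjusted p = 0.203). Mmp9, the other gelatinase, had a median of 2.87 CPM (1.66 to 5.36) in IR 4A and 5.53 CPM (4.81 to 20.3) in WT; the groups overlapped, and the log2 fold change was -1.51 ± 0.49. Membrane-anchored Mmp14, the partner of TIMP2 in that activation, was at 75.1, 80.6, 69.8, 77.8 and 74.6 CPM in IR 4A, against 85.5, 60.4, 85.5, 92.8 and 95.4 CPM in WT. Its groups overlapped and its log2 fold change was -0.15 ± 0.12 (edgeR adjusted p = 0.556).

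All 3 procollagen N-proteinases, which clip the amino-terminal propeptides of fibrillar collagens, had negative log2 fold changes in eWAT. Adamts2 was at 56.9, 37.1, 12.1, 20.2 and 36.8 CPM in IR 4A, against 80.1, 62.7, 106, 187 and 72.0 CPM in WT. The groups did not overlap, and the log2 fold change was -1.64 ± 0.44 (edgeR adjusted p = 0.203). Adamts3 had a log2 fold change of -1.43 on levels of at most 1.66 CPM, and Adamts14 one of -0.84; their groups overlapped.

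Of the 7 proteoglycanases, 6 had a negative log2 fold change (59.9% of all genes did) and 4 were lower at an unadjusted p under 0.05 (9.24% of all genes). Adamts5 was at 55.2, 46.1, 17.6, 22.6 and 60.9 CPM in IR 4A, against 75.6, 66.8, 98.0, 146 and 70.4 CPM in WT, without overlap (log2 fold change -1.17 ± 0.37, edgeR adjusted p = 0.233). Adamts9 also did not overlap, with a median of 55.6 CPM (34.5 to 60.5) in IR 4A and 69.4 CPM (63.5 to 123) in WT. Adamts1, whose product cuts versican and aggrecan, had a median of 26.9 CPM (14.9 to 35.9) in IR 4A and 45.4 CPM (35.5 to 77.3) in WT; the highest IR 4A library was just above the lowest WT library. Adamts4, another aggrecan-cutting enzyme, was the fourth of these, at 0.965 to 3.34 CPM in IR 4A and 2.49 to 9.66 CPM in WT, with overlap and a log2 fold change of -1.31 ± 0.45 (edgeR adjusted p = 0.239). Among the remaining members without overlap, Mmp23 had a log2 fold change of -1.19 ± 0.32 and Adamtsl1 one of -0.87 ± 0.23. In all, 7 of 38 members lay lower in IR 4A without overlap (3.22% of all genes did) and 0 lay higher (2.52% of all genes).

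The other inhibitors varied more than the groups differed. Timp3 was at 354, 299, 99.6, 148 and 307 CPM in IR 4A, against 289, 307, 366, 786 and 351 CPM in WT, a log2 fold change of -0.80 ± 0.40 (edgeR adjusted p = 0.361). Timp4, a TIMP of adipose and heart, was at 71.6, 56.5, 10.3, 21.7 and 61.1 CPM in IR 4A, against 33.6, 29.6, 66.0, 87.7 and 81.8 CPM in WT, a log2 fold change of -0.43 ± 0.53. Timp1 was at 8.74, 2.87, 2.41, 2.94 and 4.05 CPM in IR 4A, against 3.93, 5.13, 5.76, 2.87 and 5.46 CPM in WT, a log2 fold change of -0.14 ± 0.38. In each of these 3 genes the groups overlapped.

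Summed markers of several cell types also differed between the eWAT groups. The 6 macrophage markers summed to 104 to 207 CPM in eWAT IR 4A and 237 to 687 CPM in eWAT WT, all 6 with a negative log2 fold change at an unadjusted p under 0.05, and the 7 mesothelial markers summed to 158 to 213 CPM in IR 4A and 222 to 277 CPM in WT. The 6 progenitor and fibroblast markers summed to 348 to 481 CPM in IR 4A and 454 to 641 CPM in WT. WT 4, the library highest in Timp2, Timp3, Mmp2 and Adamts2, was also the highest in adipocyte markers (17287 CPM) and macrophage markers (687 CPM) and the lowest in epididymal markers (5579 CPM). IR 4A 3 and IR 4A 4, the lowest in Adamts2, Adamts5 and Timp3, were the lowest in adipocyte markers (1596 and 2335 CPM). The part of these cell mixtures in the members' values was not tested. Without WT 4 the median log2 fold change of the members was -0.38, and without the 4 libraries with over 1000 CPM of sperm markers it was -0.58. Without those 4 libraries the log2 fold change was -1.36 for Timp2, -1.39 for Mmp2, -1.47 for Adamts2 and -0.94 for Adamts5.

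**Figure D2:**
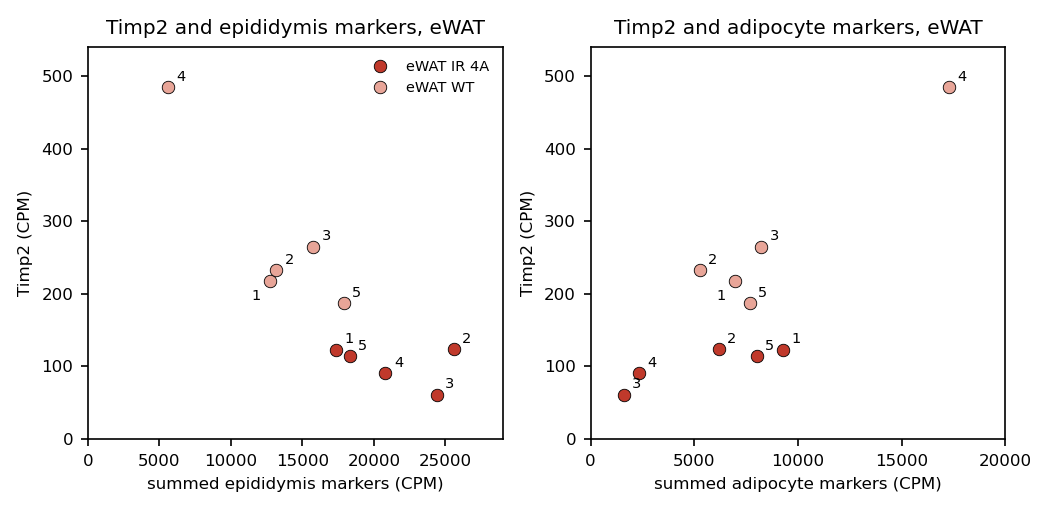
Timp2 level (CPM, vertical) in the 10 eWAT libraries against the summed markers of epididymis (left) and of adipocytes (right), in CPM; each point is a library and its number the replicate. The 5 IR 4A libraries lie between 61.2 and 124 CPM, below the 5 WT libraries at 187 to 484 CPM, and WT 4 combines the highest Timp2 and adipocyte values with the lowest epididymal value.

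In liver, IR 4A was compared with WT over 22 members that passed the filter; 14 others were too low. 0 of the 22 passed an adjusted p of 0.05 by edgeR's quasi-likelihood test, where 1 of 12421 genes did (0.00805%, lower). At an unadjusted p under 0.05, 8 members were higher in IR 4A (8.6% of all genes were) and 0 were lower (9.48% of all genes). Of the 22, 18 had a positive log2 fold change (51% of all genes did) and 4 a negative one (49%), with a median of 0.39 against 0.00 for all genes. DESeq2 called 5 members higher at an adjusted p under 0.05 (1.85% of all genes) and 0 lower (2.26%). Limma voom called 0 either way (0.0161% of all genes in each direction), as did 1 edgeR fit of all 20 libraries (0.272% of all genes higher and 0.0612% lower). The authors' deposited table called 4 higher, Adamts10, Adamts2, Adamtsl2 and Timp2 (1.2% of its genes), and 0 lower (1.37%).

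Timp2 and Timp3 were the liver inhibitors with enough counts to test. Timp2 was at 7.98, 9.04, 8.80, 7.26 and 8.01 CPM in liver IR 4A, against 6.51, 3.48, 5.40, 4.75 and 7.12 CPM in liver WT. The groups were narrowly apart, and the log2 fold change was 0.59 ± 0.17 (SE, edgeR adjusted p = 0.146). Timp3 was at 12.1, 27.2, 30.7, 35.2 and 21.8 CPM in IR 4A, against 12.4, 7.90, 11.7, 10.2 and 27.4 CPM in WT. The groups overlapped, with IR 4A 1 among the lower WT libraries and WT 5 above 3 of the IR 4A libraries, and the log2 fold change was 0.86 ± 0.34 (edgeR adjusted p = 0.223).

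Adamts2 and Adamts10 gave the smallest liver p-values. Adamts2 was at 3.21, 3.62, 5.12, 4.15 and 3.58 CPM in IR 4A, against 2.80, 2.54, 2.25, 1.91 and 2.44 CPM in WT, a log2 fold change of 0.72 ± 0.17. Adamts10, which binds fibrillin, was at 7.09, 6.83, 9.82, 9.33 and 8.33 CPM in IR 4A, against 5.27, 4.31, 6.30, 6.29 and 4.73 CPM in WT, a log2 fold change of 0.62 ± 0.15. Neither gene's groups overlapped, and both had an edgeR adjusted p of 0.115. The authors' deposited table gives Adamts10 a larger log2 fold change of 1.10 in liver; the cause of the gap was not tested.

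The ADAMTS-like genes Adamtsl2 and Adamtsl4, whose products bind fibrillin microfibrils, were the others without overlap. Adamtsl2 was at 8.52, 11.3, 11.1, 8.53 and 11.1 CPM in IR 4A, against 5.83, 2.59, 8.10, 2.78 and 5.98 CPM in WT, a log2 fold change of 0.99 ± 0.27 (edgeR adjusted p = 0.140). Adamtsl4 had a median of 3.20 CPM (2.46 to 3.95) in IR 4A and 1.79 CPM (0.947 to 2.10) in WT, a log2 fold change of 0.95 ± 0.23. These 4 genes and Timp2 made 5 of 22 members higher in IR 4A without overlap (1.68% of all genes did), and 0 lay lower (1.83% of all genes).

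The membrane-anchored and other MMPs of liver showed no common direction. Mmp15 was at 114, 81.5, 81.0, 54.9 and 99.9 CPM in IR 4A, against 19.4, 68.6, 46.4, 67.1 and 46.1 CPM in WT, a log2 fold change of 0.80 ± 0.29 (edgeR adjusted p = 0.197). WT 1, the library highest in acute-phase genes, was the lowest in Mmp15 and the highest in Mmp14, at 37.2 CPM. Mmp14 had a median of 17.2 CPM (15.3 to 23.0) in IR 4A and 16.8 CPM (14.7 to 37.2) in WT; its log2 fold change was -0.29 ± 0.24, and 0.21 with WT 1 and WT 3 left out. Mmp19, the second most abundant member by CPM, had a median of 43.5 CPM (30.9 to 49.9) in IR 4A and 50.9 CPM (38.4 to 54.5) in WT, a log2 fold change of -0.22 ± 0.13.

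Markers of several cell types had the same sign as most liver members. The 6 stellate-cell markers summed to 50.5 to 87.0 CPM in IR 4A and 42.8 to 60.0 CPM in WT. Of these, 5 of 6 had a positive log2 fold change (51% of all genes did). All 6 macrophage markers, all 6 endothelial markers and all 5 progenitor and fibroblast markers tested were positive too. The sums of macrophage and endothelial markers overlapped between the groups. The 6 progenitor and fibroblast markers summed to 130 to 159 CPM in IR 4A and 88.3 to 141 CPM in WT. Their part in the members' values was not tested. Without WT 1 and WT 3 the members' median log2 fold change was 0.45. The log2 fold change was then 0.68 for Timp2, 0.73 for Timp3, 0.77 for Adamts2, 0.70 for Adamts10, 1.40 for Adamtsl2 and 1.03 for Adamtsl4, and 0.51 for Mmp15, of which WT 1 was the lowest library.

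**Figure D3:**
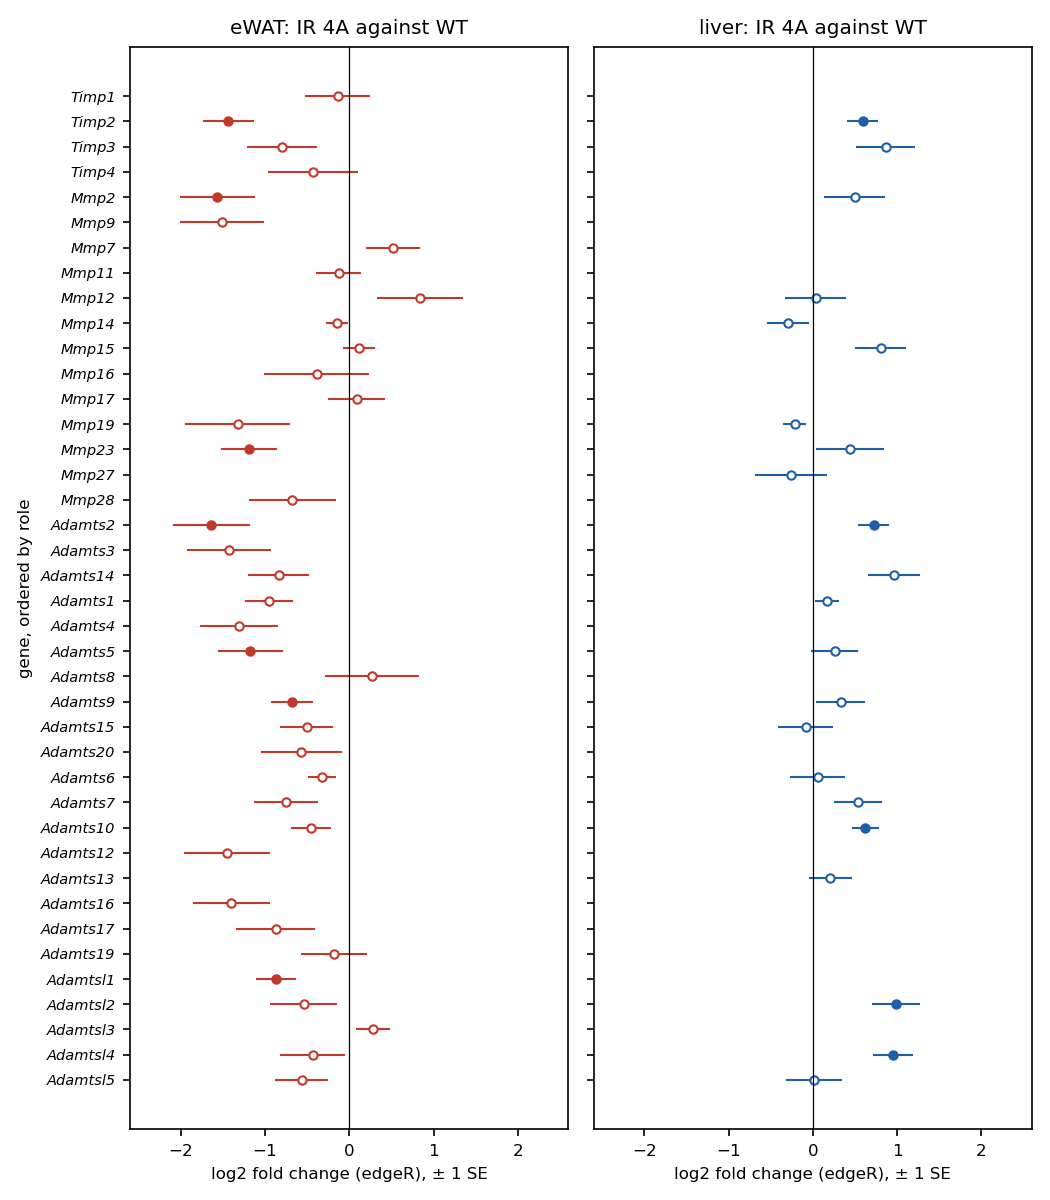
Log2 fold change of IR 4A against WT for each member tested, in eWAT (left) and liver (right), with bars of 1 SE from edgeR; filled points are genes whose 5 IR 4A and 5 WT libraries do not overlap, and a blank line is a gene not tested in that tissue. Most points lie left of 0 in eWAT (32 of 38) and right of 0 in liver (18 of 22).

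The direct test of whether the IR 4A change differed between the tissues gave the calls of the set. In 1 fit of all 20 libraries, 5 of 34 members had a lower log2 fold change in eWAT than in liver at an adjusted p under 0.05 (1.67% of all genes did) and 0 had a higher one (0.735% of all genes). At an unadjusted p under 0.05 the counts were 18 lower (14.6% of all genes) and 0 higher (7.51% of all genes). The median difference of the members, eWAT minus liver, was -1.29, against -0.12 for all genes. Of the 34, 12 passed the filter on low counts in eWAT alone, so their liver change rests on few counts. Adamts16, for example, had 9 counts over the liver IR 4A libraries and 1 over the liver WT libraries. The 5 called members were among the 20 that passed in both tissues. DESeq2 called 12 lower (4.76% of all genes) and 0 higher (4.28%), and limma voom 3 lower (2.53%) and 0 higher (1.74%).

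The 5 were an inhibitor and 4 ADAMTS enzymes. The difference was -2.04 ± 0.34 for Timp2 (SE, edgeR adjusted p = 0.0141) and -2.38 ± 0.48 for Adamts2 (adjusted p = 0.0208). It was -1.10 ± 0.26 for Adamts10 (edgeR adjusted p = 0.0395), -1.82 ± 0.46 for Adamts14 (0.0438) and -1.14 ± 0.30 for Adamts1 (0.0497). For Timp2 and Adamts2, all 5 IR 4A libraries were below all 5 WT libraries in eWAT and above them all in liver. For the others the separation came from 1 tissue or from neither: Adamts10 was apart in liver, while Adamts14 and Adamts1 overlapped in both.

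Adamts14 was at 4.73, 3.82, 2.41, 4.38 and 3.59 CPM in eWAT IR 4A, against 3.39, 5.13, 7.66, 12.4 and 5.27 CPM in eWAT WT. In liver it was at 0.981, 0.954, 1.81, 2.03 and 1.63 CPM in IR 4A, against 0.449, 0.718, 1.00, 0.802 and 0.797 CPM in WT, on 8 to 48 counts a library. Adamts1 in liver was at 5.94 to 7.54 CPM in IR 4A and 4.75 to 7.52 CPM in WT, so its difference lies mostly in the eWAT values given above. Adamts10 in eWAT was at 44.7, 36.9, 25.5, 32.6 and 38.1 CPM in IR 4A, against 43.9, 32.9, 46.1, 75.7 and 45.7 CPM in WT.

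The next members by p in that test were Mmp2, with a difference of -2.08 ± 0.57 (edgeR adjusted p = 0.0547), and Mmp23, with -1.64 ± 0.50 (adjusted p = 0.0736). Timp3 differed by -1.68 ± 0.55 (edgeR adjusted p = 0.0907). Among 20 members tested in each tissue's own fit, 15 were positive in liver and negative in eWAT (33.2% of all genes tested in both were). Adamts2 and Timp2 were the 2 of 20 that were apart in both tissues in those directions (0.1% of all genes were).

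The fit shares 1 estimate of spread although eWAT varied more than liver (common biological coefficient of variation 0.512 in eWAT and 0.187 in liver). With the spread estimated per tissue in limma voom, Timp2 alone kept its call; the count was also 1, Timp2, without liver WT 1 and WT 3, and 2, Timp2 and Adamts2, without the 4 eWAT libraries with over 1000 CPM of sperm markers. Leaving out single libraries gave 2 to 6 calls: 2 without any of liver WT 1 or 2, liver IR 4A 2, 3, 4 or 5, eWAT WT 3 or 4, or eWAT IR 4A 2, 3 or 4, and 3 without any of liver WT 3, 4 or 5 or eWAT WT 1. Timp2 and Adamts2 were called in all 20 of these fits. With same-numbered eWAT and liver libraries of a genotype treated as 1 mouse, 0 genes were called (Timp2 edgeR adjusted p = 0.0779). The labels do not say whether they share a mouse. Without eWAT WT 4 the difference was -1.66 for Timp2 and -1.96 for Adamts2.

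**Figure D4:**
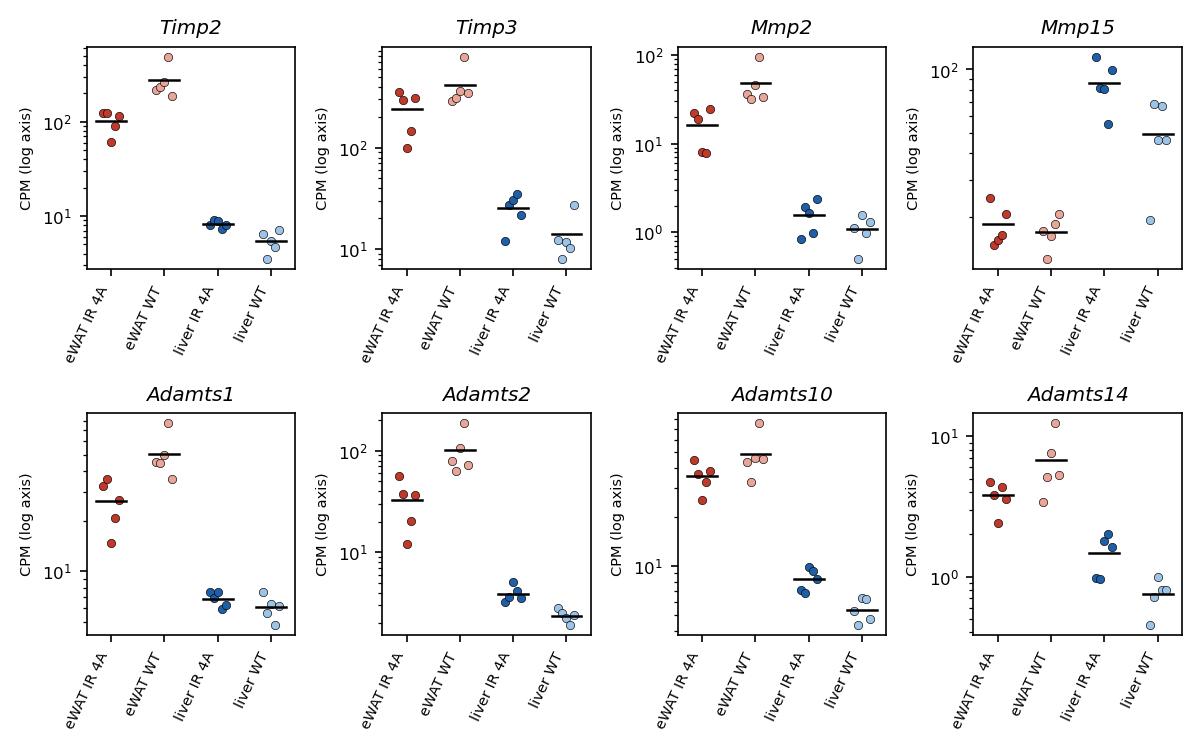
CPM (log axis) of 8 members in the 4 groups; each point is a library and each bar the mean of 5. Timp2 and Adamts2 lie lower in IR 4A than in WT in eWAT and higher in liver without overlap, while Mmp15 and Timp3 overlap in both tissues.

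The summed level of each family, in CPM per kilobase, put these genes side by side. In eWAT the TIMP genes summed to 97.0, 81.3, 32.4, 48.5 and 81.9 in IR 4A, against 102, 108, 131, 239 and 111 in WT, with no overlap. The ADAMTS enzymes summed to 16.8 to 39.2 in eWAT IR 4A and 42.6 to 97.8 in eWAT WT, also without overlap, and the MMP genes to 51.0 to 82.9 in IR 4A and 52.0 to 110 in WT, with overlap. The ratio of summed TIMP to summed MMP and ADAMTS was 0.427 to 0.845 in eWAT IR 4A and 0.849 to 1.15 in eWAT WT. In liver the ratio was 0.0917 to 0.188 in IR 4A and 0.0536 to 0.181 in WT. Mmp7 alone averaged 29.5 of a mean MMP sum of 65.9 in eWAT IR 4A, and 20.6 of 81.1 in eWAT WT. Ratios without Mmp7 were not computed. These sums describe RNA and weigh every member alike, so the most abundant members count most. They were not tested.

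**Figure D5:**
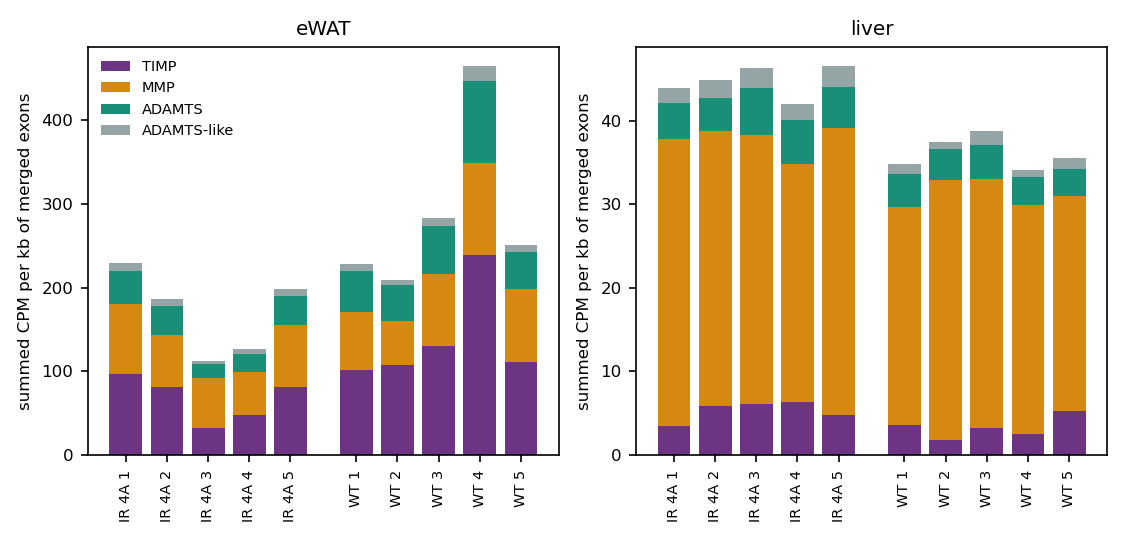
Summed CPM per kilobase of merged exons of the 4 families in each eWAT (left) and liver (right) library, IR 4A libraries left of WT libraries; the vertical axes of the panels differ. TIMP genes make up 28.7 to 43.7% of the eWAT IR 4A bars and 44.2 to 51.6% of the eWAT WT bars, and MMP genes make up most of each liver bar.

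Other genes of the same pathway were read from 2 lists that hold no member. Of 12 protease substrates tested in eWAT, 11 had a negative log2 fold change (59.9% of all genes did) and 9 were lower at an unadjusted p under 0.05 (9.24% of all genes), with a median of -1.17, led by fibrillin 1 (Fbn1) at -2.76, Col1a2 at -1.58, versican (Vcan) at -1.14 and Col3a1 at -2.03. Of 8 tested in liver, all 8 were positive (51% of all genes were), with a median of 0.42, and decorin (Dcn, 0.41) and biglycan (Bgn, 0.44) had an unadjusted p under 0.05 (8.6% of all genes were higher at that p). By the same rule as for the members, 0 passed in either tissue alone. In the test between the tissues 4 of 9 passed as lower in eWAT than in liver (1.67% of all genes did): Dcn (-1.76), Col1a2 (-2.19), Fbn1 (-3.14) and Col3a1 (-2.65), with edgeR adjusted p-values of 0.0225 to 0.0342. Of 13 genes that control these proteases, 1 passed as lower: Reck, which encodes a membrane-bound MMP inhibitor, differed by -1.15 ± 0.27 (edgeR adjusted p = 0.0364). In eWAT it averaged 9.51 ± 1.75 CPM in IR 4A and 14.9 ± 2.5 CPM in WT, and in liver 2.24 ± 0.61 CPM in IR 4A and 1.60 ± 0.29 CPM in WT (SD, n = 5 each). Reck was the exception of its list in liver. Of 9 control genes tested there, 8 had a negative log2 fold change (49% of all genes did), with a median of -0.18. Bsg (-0.18) and Lrp1 (-0.38) were lower there at an unadjusted p under 0.05 (9.48% of all genes). In eWAT 7 of 11 control genes were negative (59.9% of all genes), with a median of -0.40.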

How the data were processed

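Messenger RNA was measured in 20 libraries. Per the labels' protocols, the libraries were stranded, made from poly-A RNA and sequenced from both ends (100 bases each). The submitters' processing notes list Salmon 1.8.0 and DESeq2 1.32.0 beside GRCm39; settings are not given in the sources used here. The deposited count tables hold expected counts (estimated counts), already whole numbers when deposited. The deposited normalized tables hold log2 values of an unstated transform and served as a check (rank correlation with CPM of at least 0.987). The deposited comparison tables give, per the file headers, the authors' mean signal, log2 fold change, standard error, score, p-value and adjusted p-value per gene.

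Genes were filtered with filterByExpr (minimum count 10) and scaled by TMM in edgeR 4.0.16 (R 4.3.3), and tested by its two-sided quasi-likelihood test; p-values were adjusted by Benjamini-Hochberg over all genes tested, with a threshold of 0.05. Each tissue was fitted alone; the difference between tissues and the WT tissue contrast used all 20 libraries. An SE was taken as the log2 fold change divided by the square root of F. Alternatives used DESeq2 1.42.0 and limma 3.58.1. Gene lengths are merged exons of a GRCm38 annotation, so levels per kilobase are approximate for values made on GRCm39. Promoters are RefSeq GRCm38.p6 and carry no coordinates of the files' build. Libraries of a group were no duplicates of each other (every pair's counts differed, with a chi-square of 12.5 or more per degree of freedom). Repeated identifiers were dropped (83 in liver, 208 in eWAT; 0 were members). On simulated counts the tests were checked first. Members, gene lists and marker lists were chosen with earlier results of these data known. Genes named with full values were the 4 TIMP genes and members past the threshold for genotype or its difference between tissues. They also included the 8 with the smallest p and a mean of at least 1 CPM per tissue, and the 5 highest per tissue. The rule further took the 5 most different each way between WT tissues, and up to 4 genes per list of non-members and tissue. Mmp3, Mmp9 and others given by level were added after their values were seen.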

Additional observations from a re-analysis of the deposited data

Results flagged for a closer look

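In 5 members the IR 4A change differed between eWAT and liver by edgeR's test of the difference itself, all with the lower log2 fold change in eWAT: Timp2 (-2.04), Adamts2 (-2.38), Adamts10 (-1.10), Adamts14 (-1.82) and Adamts1 (-1.14). The calls were not equally stable. Over 32 alternatives the call was kept in 31 for Timp2 and 29 for Adamts2. It was kept in 15 for Adamts10, 12 for Adamts14 and 5 for Adamts1. Values of the 5 members by library and adjusted p-values stand in the report.

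A gap test for 1 library far from the other 4 was run on the 69 sets of 5 libraries in which a fully described member averaged at least 1 CPM, and 10 gave such a library. Chance gives about 1 in 20 for normally distributed values. That rate need not hold for CPM, where 9 of the 10 were the highest value of their group. In 7 of the 10 the library was eWAT WT 4, with the highest value of its group: 484 CPM for Timp2 (next 265), 786 CPM for Timp3 (next 366), 15.5 CPM for Adamtsl2 (next 5.23), 23.5 CPM for Mmp23 (next 12.0), 94.5 CPM for Mmp2 (next 46.3), 9.41 CPM for Adamts16 (next 3.83) and 174 CPM for Adamts12 (next 82.0). The others were Timp1 in eWAT IR 4A 1 (8.74 CPM, next 4.05), Timp3 in liver WT 5 (27.4 CPM, next 12.4) and Mmp14 in eWAT WT 2, the lowest of its group (60.4 CPM, next 85.5). The members in one library share that library, so these are not independent.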

How the results depend on the processing

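The count of members called in liver was 0 except with DESeq2 (5). In eWAT it was 0 except with DESeq2 (12), limma voom (1) and 1 fit of all 20 libraries (5). For the difference between tissues it was 5, against 13 at an adjusted p under 0.1, 12 with DESeq2, 3 with limma voom, 1 without liver WT 1 and WT 3, 2 to 6 without single libraries, and, chosen after seeing the data, 2 without the 4 eWAT libraries high in sperm markers and 1 with the spread per tissue. The count between WT tissues was 32, and 30 to 32 over all alternatives. With the replicate number as a block the difference had 0 calls (Timp2 adjusted p = 0.0779), as did every gene; the block left 0 in liver and eWAT and 32 between WT tissues. Same-numbered libraries showed no consistent shared deviation (correlations of -0.105 to 0.0940 in liver, -0.797 to 0.637 in eWAT and -0.150 to 0.0782 between tissues). Between IR 4A and WT, only 3 of 10 liver and 0 of 10 eWAT libraries deviated most like their own number. Low correlations between 2 tissues cannot exclude that same-numbered liver and eWAT libraries came from 1 mouse, and the labels do not say. Among the genes described in full, directions that turned were Mmp14 in liver (0.21) and Adamts5 in liver (-0.052) without WT 1 and WT 3, Adamtsl2 in eWAT without WT 4 (range without single libraries -0.64 to 0.023), Mmp15 in eWAT without IR 4A 1 (-0.014 to 0.20), and Timp1 in eWAT without IR 4A 3 (-0.59 to 0.0065) or the sperm-high libraries (0.16); the cause was not tested. Over all members the liver signs were 15 to 19 positive and 4 to 8 negative without single libraries. Members under the filter on low counts (14 in liver, 10 in eWAT) were fitted within their tissue only with no filter, where 0 members passed; their low depth limits what could be called.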

Other observations

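In eWAT, Adamts12 had a log2 fold change of -1.45 and Adamts16 one of -1.40, both at an unadjusted p under 0.05. Adamts6, Adamts7, Adamts15, Adamts17, Adamts19, Adamts20 and Adamtsl5 had log2 fold changes of IR 4A against WT between -0.87 (Adamts17) and -0.18 (Adamts19), and Adamtsl3 (0.28), Adamts8 (0.27) and Mmp17 (0.09) were the positive ones beside Mmp7, Mmp12 and Mmp15. Macrophage elastase (Mmp12) was at 0.860, 4.85, 5.03, 4.08 and 4.57 CPM in eWAT IR 4A, against a median of 1.99 CPM (1.11 to 4.23) in eWAT WT: 3 of the 5 IR 4A libraries were above every WT library and 1 was below them all (log2 fold change 0.84 ± 0.50, edgeR adjusted p = 0.435). The 6 macrophage markers had the opposite sign in all 6 genes. Mmp19 in eWAT was at 3.65 to 22.3 CPM in IR 4A; WT 3 had 67.7 CPM and WT 4 had 62.1 CPM, while WT 1, 2 and 5 had 14.6 to 19.4 CPM.

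In liver, Adamts7 was at 2.45, 1.96, 5.72, 4.29 and 4.37 CPM in IR 4A, against 2.80, 3.09, 2.90, 2.10 and 2.09 CPM in WT, a log2 fold change of 0.54 ± 0.28 (edgeR adjusted p = 0.323). Its 3 highest IR 4A libraries (3, 4 and 5) were also the 3 highest in Adamts10 and Adamts14 and in stellate-cell markers (87.0, 80.2 and 79.4 CPM, against 50.5 and 69.3 CPM in IR 4A 1 and 2). Timp3 and Adamts2 did not share this order, as IR 4A 2 was above IR 4A 5 in both. The order was picked after the values were seen and was not tested.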
